A study of Homo sapiens with 18 samples.

Results

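Genes that separate the myeloma lines MM1R and MM1S, 8 in all, were examined in RNA sequencing data. They are LINC01518, ADGRE5, LHX8, CMTR1, SHTN1, ZNF605, ZNF175 and ZNF486, 8 of the 43735 genes in the raw count table. They were chosen by their counts in these libraries: the first 5 are among the strongest differences between the untreated lines, and the 3 zinc finger genes were selected on being silent in MM1R cells. All 8 passed the filter on low counts, but a gene that is silent in one line could pass only through the other line. LINC01518 and ADGRE5 were higher in MM1R cells, and the other 6 genes were higher in MM1S cells.

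MM1R and MM1S are human multiple myeloma cell lines of common origin, and MM1R is the glucocorticoid-resistant one. Each line was left untreated, given 5 µM RSL3 for 3 h, or given 2 µM Fer-1 for 2 h and then 5 µM RSL3 for 3 h. RSL3 inactivates the lipid peroxidase GPX4 and starts ferroptosis, an iron-dependent cell death, and Fer-1 (ferrostatin-1) traps lipid radicals and blocks it. Each of the 6 groups held 3 libraries, 18 in all, and the replicates 1, 2 and 3 were passages 4, 6 and 7 in MM1R cells and passages 16, 22 and 23 in MM1S cells. The labels tell the replicates apart by passage, and the lines share no passage number, so line and passage cannot be told apart. The p-values measure the spread between libraries of a group, which differ in passage. The main test takes libraries of the same passage in different treatments as independent, although they deviated together, and a block on passage is an alternative.

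Library totals were 17635438 to 19368343 counts. NR3C1, the glucocorticoid receptor gene, served as a check of the line labels. It lay between 13.8 and 22.3 CPM (counts scaled to the size of the library) in 8 MM1R libraries and between 89.9 and 392 CPM in the 9 MM1S libraries, the highest being MM1S RSL3 replicate 1. The remaining library, MM1R Fer-1 + RSL3 replicate 2, stood at 50.2 CPM, between the lines. This library was set apart beforehand, from earlier results of these data, and not because of its NR3C1 level. It is shown apart throughout: means, SDs and tests use the other 17 libraries unless stated, so the MM1R Fer-1 + RSL3 group holds 2 libraries. Of 9 plasma cell markers, 8 exceeded 1 CPM on average in both lines, with CD27 under that level. All B cell, myeloid and epithelial markers lay under it, and only CD3E of the T cell markers and COL1A1 of the stromal markers exceeded it.

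The 8 genes have unlike roles. ADGRE5 encodes CD97, an adhesion G protein-coupled receptor of leukocytes that binds CD55. CMTR1 encodes the enzyme that methylates the ribose of the first transcribed nucleotide in the mRNA cap. LHX8 encodes a LIM homeobox transcription factor best known from cholinergic neurons and oocytes, and SHTN1 encodes shootin-1, which couples actin to adhesion molecules in growing axons. ZNF605, ZNF175 and ZNF486 encode zinc finger proteins of a large family, much of which carries a KRAB domain that recruits TRIM28 and silences chromatin. LINC01518 is a long intergenic non-coding RNA gene.

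The genes lie at 8 separate places on chromosomes 1, 6, 10, 12 and 19. In hg19 coordinates, LINC01518 spans chr10:43139893-43187171 on the minus strand, ADGRE5 chr19:14491313-14519537 on the plus strand and LHX8 chr1:75594119-75627218 on the plus strand. CMTR1 spans chr6:37400995-37450603 on the plus strand, and SHTN1 spans chr10:118640988-118886097 on the minus strand. ZNF605 spans chr12:133494892-133532892 on the minus strand, ZNF175 chr19:52074536-52095763 on the plus strand and ZNF486 chr19:20278023-20311297 on the plus strand. None of them overlapped another gene that passed the filter, although ZNF605 overlaps the annotation of CHFR.

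The 250 bases before the transcription start are shown for the 4 genes that had at most 4 counts in each library of one line, the library shown apart left out, since the difference there is between expression and near absence. The sequences are from RefSeq (GRCh38.p14), and each had 1 exact match in hg19. They are written 5′ to 3′ on the strand of the gene, with every CG dinucleotide, the site of DNA methylation in mammalian cells, in capitals. ZNF605 is chr12:133532893-133533142 (minus), ZNF175 chr19:52074286-52074535 (plus), ZNF486 chr19:20277773-20278022 (plus) and LINC01518 chr10:43187208-43187457 (minus).
ZNF605: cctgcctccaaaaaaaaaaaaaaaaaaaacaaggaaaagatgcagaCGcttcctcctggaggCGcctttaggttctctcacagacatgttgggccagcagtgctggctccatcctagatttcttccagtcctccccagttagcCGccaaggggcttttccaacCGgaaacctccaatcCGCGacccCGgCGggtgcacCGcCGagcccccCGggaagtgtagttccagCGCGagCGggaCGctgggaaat
ZNF175: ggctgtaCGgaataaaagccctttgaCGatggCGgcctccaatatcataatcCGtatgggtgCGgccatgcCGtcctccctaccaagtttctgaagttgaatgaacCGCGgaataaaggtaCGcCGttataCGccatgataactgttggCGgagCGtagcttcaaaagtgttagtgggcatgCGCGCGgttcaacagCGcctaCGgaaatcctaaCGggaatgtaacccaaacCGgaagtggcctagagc
ZNF486: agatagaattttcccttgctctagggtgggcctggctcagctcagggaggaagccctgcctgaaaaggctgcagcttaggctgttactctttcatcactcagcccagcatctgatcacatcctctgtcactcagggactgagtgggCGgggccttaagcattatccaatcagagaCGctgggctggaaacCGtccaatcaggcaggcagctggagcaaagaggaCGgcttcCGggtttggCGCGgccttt
LINC01518: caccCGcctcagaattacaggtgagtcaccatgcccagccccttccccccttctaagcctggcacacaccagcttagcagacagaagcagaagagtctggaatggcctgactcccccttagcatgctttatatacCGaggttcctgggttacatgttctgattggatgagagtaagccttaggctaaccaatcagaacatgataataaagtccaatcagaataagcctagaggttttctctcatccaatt
CG reads the same on both strands and was counted once per position. ZNF175 held 20 CG, a number reached by 32.4% of the 35116 promoters in the table, and ZNF605 held 15, reached by 42.9%. ZNF486 held 7, reached by 58.9%, and LINC01518 held 2, reached by 85.3%. The median over all promoters was 11 CG, so the zinc finger promoters lay on both sides of it and the LINC01518 promoter was poor in CG. Methylation was not measured in these libraries, and the counts describe the sequence only.

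LINC01518 was expressed in MM1R cells and was at or near 0 in MM1S cells. In untreated MM1R cells it stood at 12.6, 12.3 and 11.3 CPM in replicates 1, 2 and 3. In MM1S cells it had 0 to 2 counts in each of the 9 libraries, under the floor of 3 counts that was taken as the smallest detectable level. That floor equals 0.151 to 0.197 CPM, depending on the library. Untreated MM1R cells were therefore at least 78.2-fold higher, a value that describes the choice of the gene and was not tested. In bulk RNA, fewer cells that express a gene and less RNA per cell cannot be told apart. Under RSL3, MM1R cells had 24.7, 15.8 and 18.9 CPM of LINC01518, and under Fer-1 + RSL3 replicates 1 and 3 had 24.2 and 22.2 CPM. Every one of these treated MM1R libraries was above every untreated one. The difference between the lines was at least 115-fold under RSL3 and at least 146-fold under Fer-1 + RSL3.

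ADGRE5 was the other gene that was higher in MM1R cells, and it was low but detected in all MM1S libraries. Untreated MM1R cells had 29.3, 27.5 and 27.2 CPM and untreated MM1S cells had 0.57, 0.836 and 1.15 CPM, the latter from 11, 16 and 23 counts. The means differed 32.8-fold, which describes the choice of the gene and was not tested. With RSL3, the MM1R libraries had 23.7, 27.4 and 28.9 CPM of ADGRE5, against 0.592, 0.533 and 1.12 CPM in the MM1S libraries. After Fer-1 + RSL3 it was at 20.6 and 22.7 CPM in MM1R replicates 1 and 3 and at 0.57, 0.984 and 0.629 CPM in MM1S cells. In no treatment did the lines overlap.

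LHX8 showed the widest relative gap of the MM1S-high genes that were detected in both lines. Untreated MM1R cells had 2.03, 2.02 and 1.91 CPM, and untreated MM1S cells had 29.1, 33 and 25.7 CPM, a 14.8-fold difference of means. With RSL3 the values were 4.36, 2.71 and 5.47 CPM in MM1R cells, compared with 35, 34.4 and 32 CPM in MM1S cells. Fer-1 + RSL3 gave 3.54 and 4.26 CPM in MM1R replicates 1 and 3, and 32.5, 35.8 and 35.4 CPM in MM1S cells. All 5 treated MM1R libraries were above the untreated ones, and the fold between the lines was 8.09 under RSL3 and 8.87 under Fer-1 + RSL3.

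CMTR1 had the smallest fold of the 8 genes, with replicates close together. Its untreated levels were 33.2, 33.7 and 33.2 CPM in MM1R cells, compared with 72.2, 76.9 and 72.4 CPM in MM1S cells, so the means differed 2.21-fold. Under RSL3 the MM1R libraries had 33.2, 31.6 and 30.5 CPM and the MM1S libraries 76.7, 76.6 and 76.2 CPM. With Fer-1 + RSL3 it was at 35.7 and 34.1 CPM in MM1R replicates 1 and 3 and at 77.7, 80.1 and 77.8 CPM in MM1S cells. The 8 MM1R libraries thus kept between 30.5 and 35.7 CPM, and no MM1S library was under 72.2 CPM.

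SHTN1 differed by a similar factor with more spread. Untreated cells had 8.11, 9.21 and 7.94 CPM in MM1R and 22.1, 30.5 and 28.4 CPM in MM1S, a 3.21-fold difference of means. RSL3-treated cells had 8.5, 9.64 and 9.97 CPM in MM1R and 23.9, 24.2 and 26.1 CPM in MM1S. After Fer-1 + RSL3, SHTN1 was at 10.6 and 10.2 CPM in MM1R replicates 1 and 3 and at 21.5, 26.5 and 27.9 CPM in MM1S. The lines did not overlap, and in MM1S cells replicate 1 was the lowest in all 3 treatments.

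ZNF605 and ZNF175 had no count in any of the 8 MM1R libraries other than the one shown apart. In MM1S cells, ZNF605 stood at 4.2, 3.13 and 2.16 CPM untreated, from 81, 60 and 43 counts. It was at 1.64, 2.45 and 1.71 CPM with RSL3 and at 1.92, 2.24 and 2.41 CPM with Fer-1 + RSL3. Against a floor of 3 counts per library, MM1S cells were at least 19.2-fold higher untreated, at least 11.7-fold higher under RSL3 and at least 13.9-fold higher under Fer-1 + RSL3. ZNF175 stood at 4.35, 4.13 and 3.81 CPM in untreated MM1S cells, at 3.42, 4.47 and 5.39 CPM with RSL3 and at 5.29, 5.41 and 6.34 CPM with Fer-1 + RSL3. MM1S cells were at least 24.9-fold, at least 26.8-fold and at least 36-fold higher in ZNF175 in these 3 conditions.

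ZNF486 was nearly silent in MM1R cells. It had 0 or 1 count in 7 MM1R libraries and 4 counts in MM1R Fer-1 + RSL3 replicate 1. In MM1S cells it was at 1.81, 2.25 and 2.26 CPM untreated, at 1.05, 2.29 and 2.29 CPM with RSL3 and at 4.04, 2.68 and 3.56 CPM with Fer-1 + RSL3. The lowest MM1S value was that of RSL3 replicate 1, with 16 counts, and the highest that of Fer-1 + RSL3 replicate 1, with 78. MM1S cells were at least 12.8-fold higher untreated and at least 11.4-fold higher under RSL3. Because silence in MM1R cells chose the 3 zinc finger genes, their differences between the lines are given without a test.

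**Figure D1:**
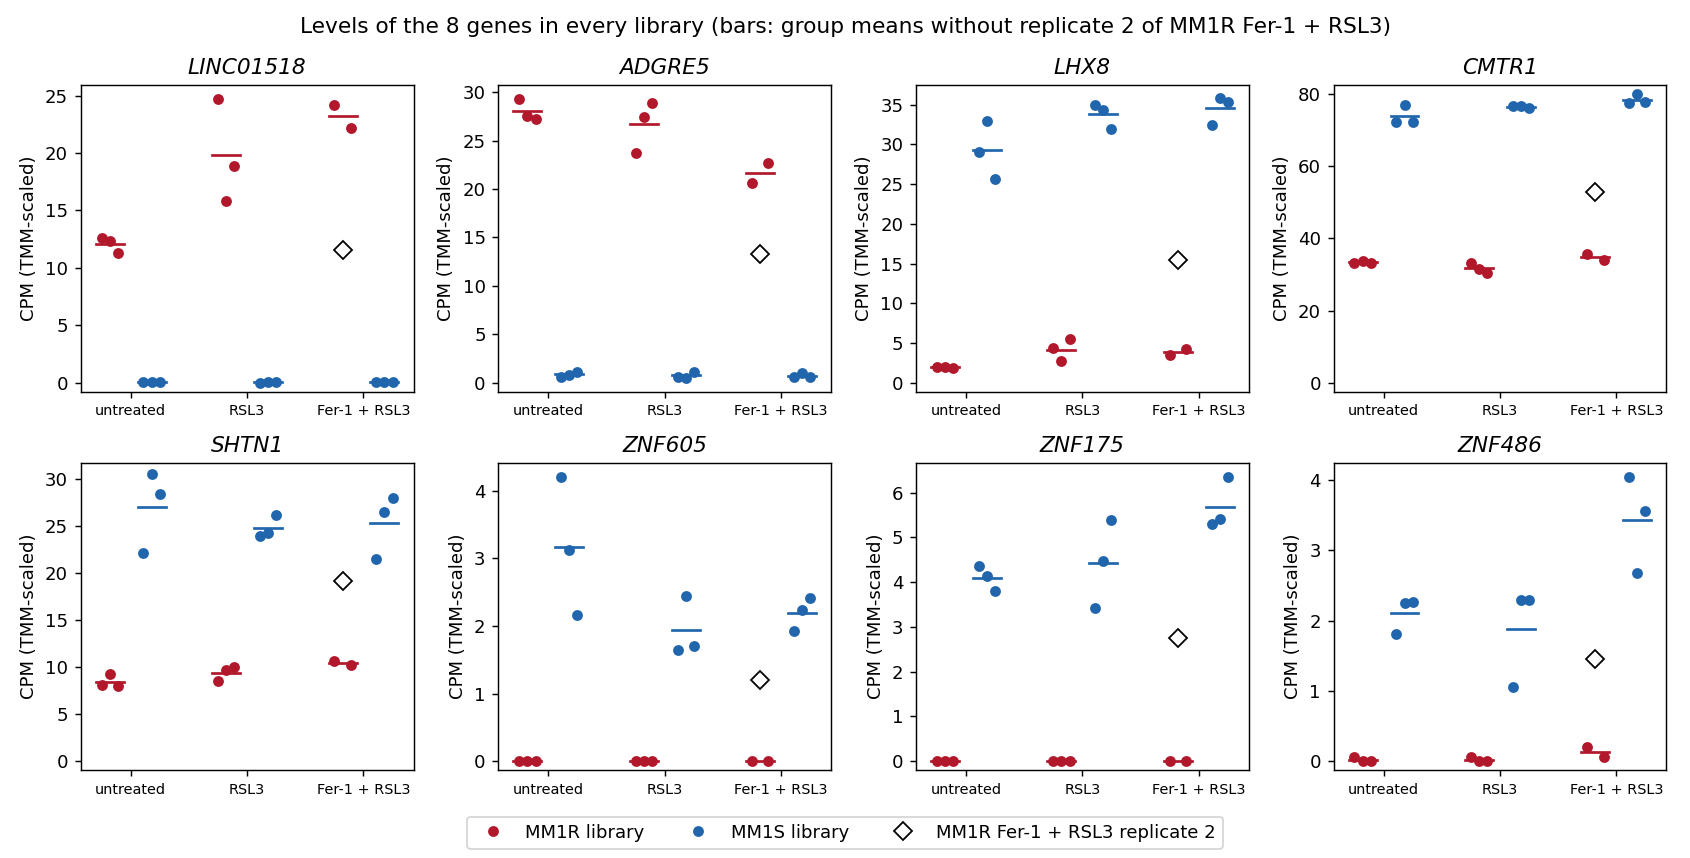
Level of each of the 8 genes (CPM, linear axes that differ between panels) in every library by treatment, with MM1R in red, MM1S in blue, bars at group means and MM1R Fer-1 + RSL3 replicate 2 as an open diamond left out of the means. The lines are apart in all 3 treatments in every panel, and the diamond lies between them, as at 15.4 CPM for LHX8.

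Per kilobase of annotated exon, which allows genes to be compared, untreated MM1S cells expressed CMTR1 most (14.0 CPM per kb), then LHX8 (6.55) and SHTN1 (3.27). ZNF175 (0.553), ZNF486 (0.494) and ZNF605 (0.292 CPM per kb) were lower than these. In untreated MM1R cells the order was CMTR1 (6.31), ADGRE5 (5.2), LINC01518 (4.84), SHTN1 (1.02) and LHX8 (0.443 CPM per kb).

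In the untreated comparison that chose the genes, 689 of the 14646 genes tested, or 4.7%, were called, meaning an FDR below 0.05 together with a log2 fold change of more than 1 in either direction, and nothing is read from the 8 members there. Ordered by p with all 18 libraries in the fit, ADGRE5 was the second of the MM1R-high genes with an FDR of 2.56e-08, and the next, CDKN2A, had 3.1e-08. SHTN1 was the third of the MM1S-high genes with 0.000116, and the next, ZNF727, had 0.000136. These values describe where the choice ended. On the authors' normalized values, the mean log2 level in untreated MM1R cells minus that in MM1S cells was 5.10 for ADGRE5, -3.87 for LHX8, -1.14 for CMTR1 and -1.66 for SHTN1, beside 5.09, -3.88, -1.15 and -1.67 on the CPM scale. With the library shown apart left out of the fit, the places within each direction became 1 for LINC01518, 3 for ADGRE5, 3 for LHX8, 6 for CMTR1 and 9 for SHTN1.

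The levels in the treated libraries were not compared in choosing LINC01518, ADGRE5, LHX8, CMTR1 and SHTN1. The difference between the lines was tested there with edgeR's quasi-likelihood test and Benjamini-Hochberg adjustment over all 14646 genes. The test is not independent of the choice, since the order by p also used a spread estimated over treated and untreated libraries together. Genes placed high by p tend to have a small spread, which favours small p-values here. The treated libraries carry the same passage labels as the untreated ones. LINC01518, with 0 to 2 counts in every MM1S library, passed the filter only through the line where it is high, so it is left to the bounds above, without a test, and the test covers the other 4 genes. Under RSL3, 702 genes (4.79%) were called, and all 4 of these members were among them. ADGRE5 was 35-fold higher in MM1R cells, with a log2 fold change of 5.13 ± 0.261 (SE) and an adjusted p of 6.28e-09. LHX8 was lower in MM1R cells by a log2 fold change of -3.02 ± 0.188 (adjusted p = 5.41e-08). CMTR1 had -1.27 ± 0.0803 (adjusted p = 5.78e-08) and SHTN1 -1.40 ± 0.142 (adjusted p = 1.53e-05). With only the RSL3 groups in the fit, edgeR's adjusted p-values were 0.00051 for ADGRE5, 0.00244 for LHX8, 0.00171 for CMTR1 and 0.00393 for SHTN1.

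Under Fer-1 + RSL3, 462 genes (3.15%) were called, again with the 4 members. The log2 fold changes, MM1R against MM1S, were 4.89 ± 0.269 for ADGRE5, -3.15 ± 0.222 for LHX8, -1.17 ± 0.0917 for CMTR1 and -1.28 ± 0.161 for SHTN1. Their adjusted p-values in edgeR's test ran from 1.93e-08 for ADGRE5 to 0.00016 for SHTN1. Where the library shown apart was put back into its group, CMTR1 and SHTN1 lost their calls. CMTR1 then had -0.94 and SHTN1 -0.927, both under the fold minimum in size, and the number of genes called fell to 257.

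Within the lines, LHX8 was called higher after RSL3 in MM1R cells, and no other member was called in either line. The baseline of this comparison is the untreated libraries that chose the genes. LHX8 was chosen for being low in untreated MM1R cells, which favours a rise from that level, so its test is not independent of the choice. In MM1R cells 161 genes (1.1%) were called after RSL3. LHX8 rose 2.09-fold, with a log2 fold change of 1.07 ± 0.207 (SE) and an adjusted p of 0.0137 in edgeR's test, and was higher in 3 of 3 passages. By passage, the rise was 2.33, 0.69 and 3.56 CPM. The counts behind it were low, 39, 37 and 33 untreated against 81, 50 and 96 with RSL3. The call was lost on leaving out any 1 of the 3 untreated MM1R libraries or MM1R RSL3 replicate 1 or 3, with adjusted p-values of 0.0546 to 0.0611. It was also lost with all 18 libraries (adjusted p = 0.197) and with only the groups compared in the fit (adjusted p = 0.076), and it was kept with the passage as a block (log2 fold change 1.04, adjusted p = 0.00532).

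LINC01518 was higher in 3 of 3 MM1R passages after RSL3, by 12.1, 3.5 and 7.6 CPM. Its log2 fold change of 0.71 ± 0.182 had an adjusted p of 0.0467 in edgeR's test and was under the fold minimum, so it was not called. In edgeR fits the adjusted p ran from 0.0108 with the passage as a block to 0.11 with all 18 libraries. Without MM1R RSL3 replicate 1 it was 0.239. LINC01518 passed the filter only through MM1R cells, so its values here are no independent finding. ADGRE5 (-0.07 ± 0.196), CMTR1 (-0.07 ± 0.0799) and SHTN1 (0.15 ± 0.144) had adjusted p-values of 0.644 or more. A fit that blocked on passage called 394 genes in MM1R cells after RSL3, with LHX8 the only one of the 5 members.

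In MM1S cells 205 genes (1.4%) were called after RSL3, and 0 of the 7 members above the floor there. ZNF605 had the largest change in size, a log2 fold change of -0.70 ± 0.316 with an unadjusted p of 0.0486 and an adjusted p of 0.261 in edgeR's test, and it was lower in 3 of 3 passages. The zinc finger members passed the filter only through MM1S cells, so their values here depend on that filter and are no independent finding. LHX8 had 0.20 ± 0.167 (adjusted p = 0.556) and was higher in 3 of 3 passages. ADGRE5, CMTR1, SHTN1, ZNF175 and ZNF486 lay between -0.18 and 0.11 on the log2 scale. Blocking on passage gave 391 called genes in MM1S cells, again without a member.

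The response to RSL3 was compared between the lines as an interaction, which has the same untreated baseline. None of the 14646 genes was called (0%) in edgeR's test, 231 had an unadjusted p under 0.05, and DESeq2 called 0. LHX8, which was called in MM1R cells and not in MM1S cells, had an interaction of 0.86 ± 0.266 on the log2 scale, with an unadjusted p of 0.0052 and an adjusted p of 1. ADGRE5 (0.11 ± 0.364), CMTR1 (-0.12 ± 0.112) and SHTN1 (0.28 ± 0.198) also had an adjusted p of 1. A difference between the lines in these responses was therefore not shown.

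Adding Fer-1 before RSL3 called no gene in either line. In MM1R cells 0 of 14646 genes (0%) passed edgeR's test, with 514 at an unadjusted p under 0.05 and 6 called by DESeq2. In MM1S cells 0 (0%) passed, with 823 at an unadjusted p under 0.05 and 5 called by DESeq2. Of the members above the floor in a line, ZNF486 in MM1S cells had the largest log2 fold change for Fer-1 + RSL3 against RSL3, 0.86 ± 0.369, with an adjusted p of 0.869, and was higher in 3 of 3 passages. ZNF175 had 0.36 ± 0.231 (adjusted p = 0.913) and was also higher in 3 of 3 passages. ZNF486 and ZNF175 passed the filter only through MM1S cells, and LINC01518 only through MM1R cells, so their values here are no independent finding. In MM1R cells ADGRE5 had -0.30 ± 0.221, LINC01518 0.23 ± 0.2 and LHX8 -0.10 ± 0.216, each with an adjusted p of 1. LHX8 and LINC01518 thus stood above their untreated levels in RSL3-treated MM1R cells with and without Fer-1, though Fer-1 + RSL3 was not tested against untreated cells.

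**Figure D2:**
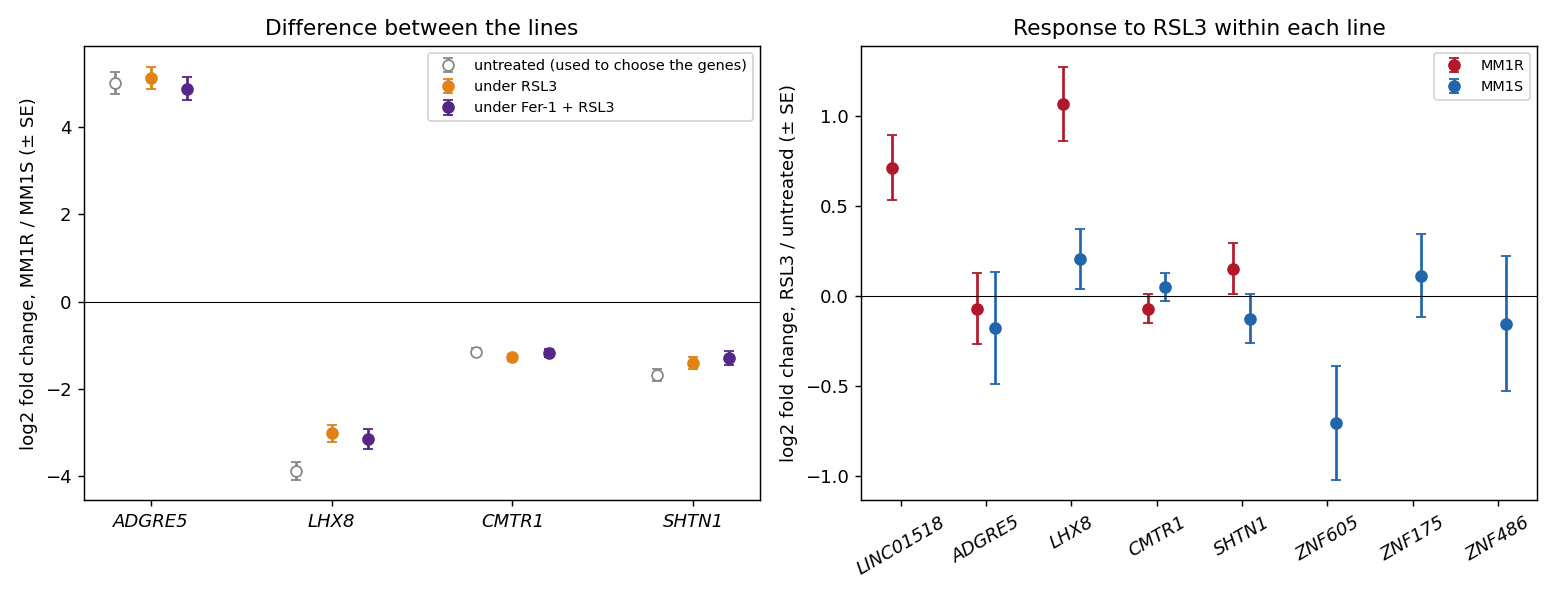
Left, log2 fold change ± SE of MM1R against MM1S for the 4 genes detected in both lines, with the untreated comparison that chose them as open circles. Right, log2 fold change ± SE of RSL3 against untreated in MM1R (red) and MM1S (blue) for the genes above the floor; LHX8 in MM1R, at 1.07, is the only one past the fold minimum of 1.

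All 8 genes in MM1R Fer-1 + RSL3 replicate 2 lay between the lines. MM1S signal in this library was known beforehand, so the values below describe it and are no independent finding. On a scale with 0% at the mean of the other MM1R Fer-1 + RSL3 libraries and 100% at the MM1S mean of that treatment, the 8 genes stood at 37.6% to 58.4%, with a median of 44.9%. The MM1R-high genes were lower in it than in replicates 1 and 3: LINC01518 was at 11.6 CPM and ADGRE5 at 13.3 CPM, 50.2% and 40.1% of the way. The MM1S-high genes were raised, to 15.4 CPM for LHX8 (37.6%), 52.9 CPM for CMTR1 (41.3%) and 19.1 CPM for SHTN1 (58.4%).

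The genes silent in the other MM1R libraries were detected in this one. ZNF605 had 23 counts in it (54.6% of the way), ZNF175 had 53 (48.5%) and ZNF486 had 28 (40.2%), against at most 0, 0 and 4 counts in the other 8 MM1R libraries. The remaining 17 libraries, each placed between the mean of its own group without itself and the other line, had a median of 0%, and 8 of their 136 values lay between 20% and 80%. Of those 8, MM1S RSL3 replicate 1 held 3. The total of the library shown apart, 19025112 counts, was within the range of the others. A wider survey was chosen after these values were seen, and it takes in the members ZNF175, ZNF605 and LINC01518 again. Among the genes with at most 3 counts in each library of one line and a median of at least 20 in the other, 15 were silent in MM1R cells. All 15 exceeded 3 counts in the library shown apart, with 6 to 280 counts. The 14 genes silent in MM1S cells had 11 to 223 counts in it, the highest being LINC01518. Those 14 were chosen as expressed in MM1R cells, so counts over 3 in a library of that line follow from the choice. How these counts arose was not tested.

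**Figure D3:**
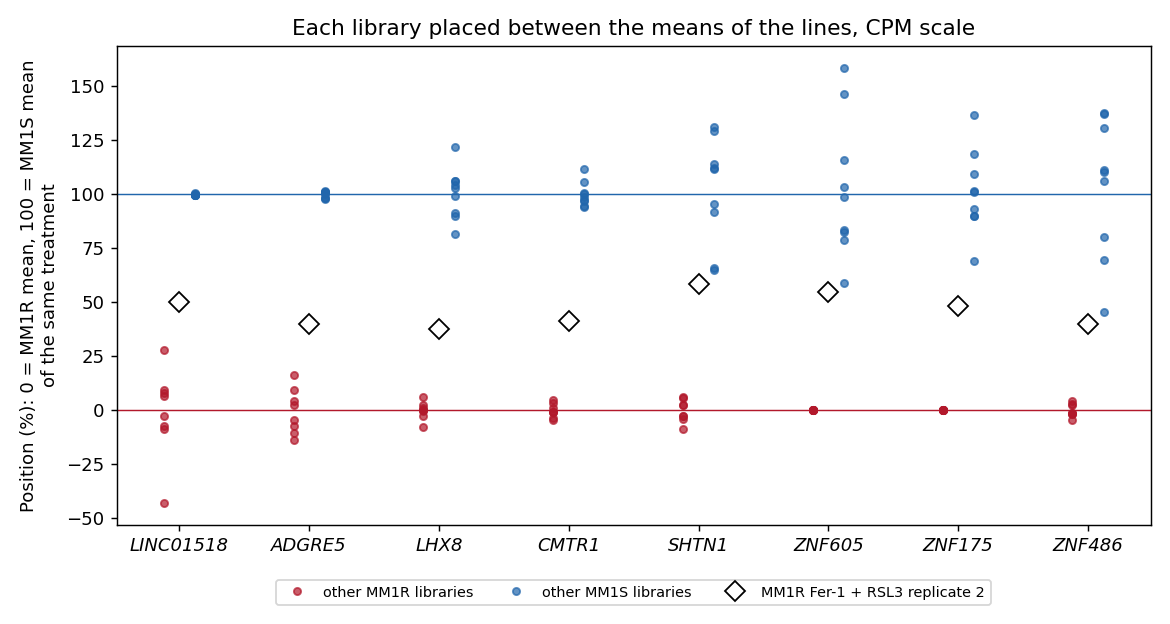
Position of each library between the mean of MM1R (0%) and of MM1S (100%) for the same treatment, on the CPM scale, for the 8 genes; a library's own value is left out of its group's mean. MM1R Fer-1 + RSL3 replicate 2 (open diamonds) lies at 37.6% to 58.4% in all 8 genes. The other MM1R libraries (red) and the MM1S libraries (blue) gather around their own lines. Scatter is wider in MM1S libraries for the low-count zinc finger genes and SHTN1, and in MM1R libraries for LINC01518.

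Of the 15 genes silent in MM1R cells, 3 (20%) have a symbol made of ZNF and digits: ZNF175, ZNF605 and ZNF716. The first and second of these are members chosen as silent zinc finger genes, so the 20% describes values that the choice used and is no independent support. Of the 14 silent in MM1S cells, 0 have one, and of all genes tested 2.64% do. Where only the median count of the silent line had to be at most 3, the numbers were 5 of 27 genes silent in MM1R cells and 5 of 48 silent in MM1S cells, so the absence from the MM1S side did not hold. Over the whole untreated comparison, 42 of the 383 other zinc finger genes tested (11.0%) were called, against 4.7% of all genes, with 13 higher and 29 lower in MM1R cells. The 5 with the smallest adjusted p in edgeR's test were all lower in MM1R cells: ZNF714 (log2 fold change -3.57), ZNF727 (-3.42), ZNF888 (-5.02), ZNF544 (-4.95) and ZNF675 (-2.33). The median log2 fold change of the zinc finger genes was -0.0233, beside -0.0096 over all genes tested. Zinc finger genes share sequence with close relatives, and how reads that fit several of them were counted is not given in the sources used here.

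The machinery that KRAB zinc finger proteins act through, such as TRIM28 and SETDB1, was not called between the untreated lines in any of 12 genes, with a median log2 fold change of -0.14. The same held for 0 of 13 adhesion receptor relatives and ligands of CD97, 0 of 7 LIM homeobox factors and their cofactors, and 0 of 6 partners of shootin-1. Their median log2 fold changes were -0.209, -0.0366 and -0.265. Of 16 genes for enzymes and proteins of the RNA 5′ end, 1 was called: IFIT1, an interferon-induced protein that binds RNA lacking cap ribose methylation, was higher in MM1R cells with a log2 fold change of 1.62 (edgeR adjusted p = 0.0275). The median of that list was -0.038. With 4.7% of all genes called, 0 or 1 call in lists of this size is near the background and is no result about these pathways.

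Genes beside the members were examined to see whether a difference extended along the chromosome. Among the 5 genes tested on each side, 7 of 80 neighbours (8.75%) were called between the untreated lines, against 4.7% of all genes. None of the 10 neighbours was called at LINC01518, ADGRE5, LHX8, SHTN1 or ZNF605. At CMTR1, the nearest 2 genes upstream were called and, like CMTR1, were lower in MM1R cells: RNF8, a ubiquitin ligase of the DNA damage response that lies 38.5 kb away, by a log2 fold change of -1.08 (edgeR adjusted p = 0.00627), and TBC1D22B, 100 kb away, by -1.17 (adjusted p = 9.78e-06). The median log2 fold change of the 10 nearest genes at CMTR1 was -0.495, so the near region lay lower in MM1R cells at the median. With 10 genes on each side of CMTR1, 5 of 20 were called, 3 of them higher in MM1R cells. The median log2 fold change was then 0.0158, so the wider region did not move one way.

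At ZNF486, in a cluster of zinc finger genes on chromosome 19, 4 of 10 neighbours were called. The genes ZNF506 (-1.55), ZNF90 (-1.26) and ZNF826P (-8.93) were lower in MM1R cells on the log2 scale, and ZNF626 (3.39) was higher. The median log2 fold change of the 10 neighbours was -0.668. With 10 genes on each side, 6 of 20 were called, 1 of them higher in MM1R cells, and the median was -0.537. The cluster thus lay lower in MM1R cells at the median, with ZNF626 the other way. ZNF826P, 197 kb from ZNF486, is itself among the genes silent in MM1R cells, so its fitted value is no bound. At ZNF175, 1 of 10 was called, ZNF615 with a log2 fold change of -2.07, 399 kb away.

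**Figure D4:**
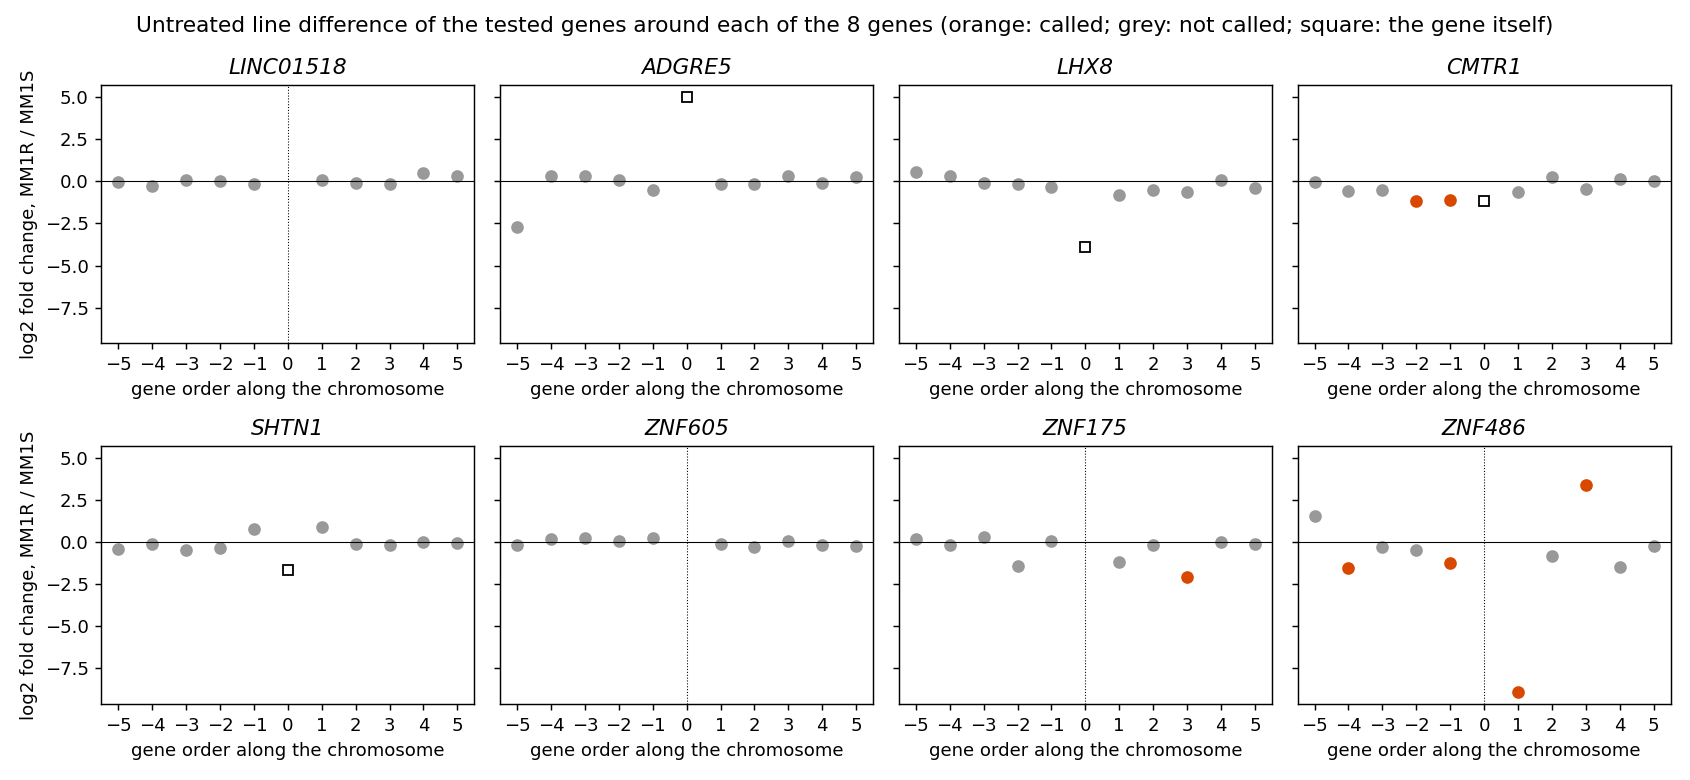
Log2 fold change of untreated MM1R against MM1S for the 5 tested genes on each side of each of the 8 genes, in their order along the chromosome, with called genes in orange, others in grey and the gene itself, where detected in both lines, as a square. The 7 called neighbours are at CMTR1 (2), ZNF175 (1) and ZNF486 (4).

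The genes whose pattern was most like that of a member were found by the smallest root mean square difference in centred log2 CPM over the 17 libraries. Since the libraries of a line lie together, this measure mainly finds genes with a like difference between the lines. For LINC01518 they were SSX1 (0.503) and CDKN2B (0.751), and for ADGRE5 they were MAGEA6 (0.326) and LOC105373367 (0.358). SSX1 and MAGEA6 are cancer-testis genes. LHX8 was nearest to ZNF888 (0.417) and OLIG2 (0.418), and CMTR1 to SPINT2 (0.125) and its neighbour TBC1D22B (0.134). SHTN1 was nearest to CMTR1 (0.203) and RAD21 (0.215). For the silent genes, ZNF605 was nearest to SLC46A3 (0.43) and SDC2 (0.464), ZNF175 to SPIN3 (0.482) and ZNF605 (0.593), and ZNF486 to TMEM132D-AS1 (0.489) and ZNF888 (0.49).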

How the data were processed

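RNA of 18 libraries was sequenced in pairs, and the authors aligned the reads to hg19 with STAR 2.7.3a after FastQC 0.11.5. The deposited raw counts cover 43735 genes. The deposited normalized signal covers 29553 genes, each value being the count over the size factor for that library (0.834 to 1.08). The counting tool, annotation and use of strand are not given in the sources used here. The members and gene lists were chosen with earlier results of these data known.

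Counts were tested with edgeR 4.0.16 in R 4.3.3 (filterByExpr with a minimum count of 10, TMM, quasi-likelihood test) in 1 model of 6 group means over 17 libraries, with 11 residual degrees of freedom and Benjamini-Hochberg adjustment over 14646 genes. A gene was called where the FDR was below 0.05 and the log2 fold change exceeded 1 in either direction. The SE given with an edgeR log2 fold change is its size over the square root of the test's F statistic, so it was derived from the test. Levels are CPM with TMM-scaled library sizes, and 3 counts is the floor. Such values cover counting error only. DESeq2 1.42.0 and limma 3.58.1 were alternatives. The script was tested on simulated data.

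Libraries of the same passage deviated together from their group means, correlating at a median of 0.35 over 7 MM1R pairs (range 0.0903 to 0.55) and of 0.404 over 9 MM1S pairs (range 0.208 to 0.665). The pairing comes from the labels, which give the passage. Positions came from GENCODE v44lift37 by symbol, which placed 87.9% of the tested genes, and promoters from RefSeq, which held 7 of the 8 members (all but ADGRE5). The text names the 8 members, the 2 genes most like each, called neighbours, up to 5 called genes of each list, and NR3C1. Others named, such as those around the end of the choice, were added after their values were seen.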

Additional observations from a re-analysis of the deposited data

Results flagged for a closer look

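Signal outside the comparisons was seen in MM1R Fer-1 + RSL3 replicate 2, the library shown apart, where MM1S signal was known beforehand. ZNF605 had 23 counts in it, where the other 8 MM1R libraries had 0. ZNF175 had 53 counts in it against 0 in the others. ZNF486 had 28 counts in it, where the highest other MM1R library had 4. No group of samples had 4 or more libraries, so single values within groups were not examined for outliers. The cause of these counts was not tested.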

How the results depend on the processing

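LINC01518 passed the filter only through MM1R cells, so its line differences are not counted here. The line differences of ADGRE5, LHX8, CMTR1 and SHTN1 under RSL3 were called under all alternatives tried, including each library left out. Under Fer-1 + RSL3 they were called under all except the fit with all 18 libraries. That fit called 257 genes there, with ADGRE5 and LHX8 among them and CMTR1 and SHTN1 not. It called 0 members for RSL3 in MM1R cells, and turned the Fer-1 effect in MM1R cells to -0.0346 for LINC01518 and 0.893 for LHX8. DESeq2 called 265 (MM1R) and 331 (MM1S) genes for RSL3, with 6 and 5 for Fer-1. With no filter on low counts the called genes were 1062 between the lines under RSL3, 769 under Fer-1 + RSL3, 440 and 532 for RSL3 in MM1R and MM1S cells, 89 and 157 for Fer-1, and 33 for the interaction. With no fold minimum they were 1376, 706, 444 (2 members, LHX8 and LINC01518) and 467 in the same order. With only the groups compared in the fit they were 417 between the lines under RSL3 and 3 for RSL3 in MM1S cells, and 0 members were called for RSL3 in MM1R cells.

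With the passage as a replicate block, 394 (MM1R) and 391 (MM1S) genes were called for RSL3, with 4 and 4 for Fer-1, and no call of a member changed. The replicate number as a block across the lines, which share no passage, gave 981 and 671 genes between the lines under RSL3 and Fer-1 + RSL3. ADGRE5, LHX8, CMTR1 and SHTN1 were called in both. limma voom with the passage as a random effect gave 707 and 548.

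Leaving out 1 library at a time (1 library then stands for MM1R Fer-1 + RSL3 in 2 of the fits and is assumed to vary like the other groups), the called genes ran from 227 (without MM1R Fer-1 + RSL3 replicate 1) to 604 between the lines under Fer-1 + RSL3, from 38 (without MM1R untreated replicate 1) to 338 (without MM1S RSL3 replicate 1) for RSL3 in MM1R cells, from 36 (without MM1S untreated replicate 1) to 443 (without MM1S RSL3 replicate 3) for RSL3 in MM1S cells, and from 0 to 1 for Fer-1 in MM1R cells. Members called for RSL3 in MM1R cells ran from 0 to 1. Some log2 fold changes changed sign, and none of these was called. For ADGRE5 they were RSL3 in MM1R (-0.126 to 0.0109) and MM1S cells (-0.607 to 0.11), Fer-1 in MM1S cells (-0.33 to 0.37) and the interaction (-0.176 to 0.537). For LHX8 they were Fer-1 in MM1R (-0.331 to 0.136) and MM1S cells (-0.00262 to 0.078), and for SHTN1, Fer-1 in MM1S cells (-0.0465 to 0.138). For RSL3 in MM1S cells they were ZNF175 (-0.0523 to 0.273) and ZNF486 (-0.319 to 0.127). Where these values moved with the setting, the cause was not tested. The authors' normalized values moved the untreated ratios of the 5 members by less than the spread between replicates. They are the same counts over a size factor, so only the scaling could differ, and this is no independent check. The called neighbours were 9.62% with 10 genes on each side. Low counts limit the zinc finger genes most.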
